A study of Mus musculus with 6 samples.

Results

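The variable segments of the immunoglobulin heavy chain (Ighv) were followed through RNA sequencing libraries of splenic CD4+ T cells. Rows were taken where the gene symbol starts with Ighv, and 108 of 39171 gene rows met this. The name column of the library files is blank for these rows, so their symbols came from the GENCODE M21 annotation by Ensembl identifier. Of the 185 Ighv genes annotated there, the 108 with a row comprise 104 of the V gene class, 2 pseudogenes and 2 genes of the leader-variable class. The AngII group was 3 C57BL/6 mice that were 10 weeks old when a 14-day osmotic minipump infusion of angiotensin II, a peptide that raises blood pressure, was begun at 800 ng/kg/min. The Control group was 3 C57BL/6 mice of the same starting age that are labelled untreated. The study describes all mice as premenopausal and isolated the cells from spleen with an immunomagnetic kit, with 1 library per mouse. The limma p-values below therefore set the difference between the groups against the spread between mice within them. That spread was moderated over all genes tested. The p-values of the authors' deposited table are their own.

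A heavy chain variable region is assembled in developing B cells by joining 1 V, 1 D and 1 J segment, and each mature B cell normally expresses a single heavy chain. T cells rearrange the T cell receptor loci instead. Plasma cells, the antibody-secreting descendants of B cells, hold very large amounts of immunoglobulin mRNA, so a small number of related cells can supply much of the message of one V segment in a bulk library. In mouse the Ighv1 family, also called J558, is the largest and lies mostly at the end of the locus far from the D and J segments.

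The germline sequences of 5 segments on which the results turn are shown. Ighv1-26 had the highest mean level. Ighv1-36, Ighv1-77 and Ighv1-84 are of the same family, and their level was set by single libraries. Ighv9-3 had the smallest p-value between the groups. Each is the last 294 bases of the V exon, read 5′ to 3′ from the GENCODE M21 transcripts on the minus strand of GRCm38. The windows are chr12:114788372-114788665 for Ighv1-26, chr12:114879888-114880181 for Ighv1-36, chr12:115861867-115862160 for Ighv1-77, chr12:115980702-115980995 for Ighv1-84 and chr12:114140692-114140985 for Ighv9-3. Capitals mark bases of the Ighv1 segments that are unlike Ighv1-26, and Ighv9-3, of another family, is in lower case throughout.
Ighv1-26: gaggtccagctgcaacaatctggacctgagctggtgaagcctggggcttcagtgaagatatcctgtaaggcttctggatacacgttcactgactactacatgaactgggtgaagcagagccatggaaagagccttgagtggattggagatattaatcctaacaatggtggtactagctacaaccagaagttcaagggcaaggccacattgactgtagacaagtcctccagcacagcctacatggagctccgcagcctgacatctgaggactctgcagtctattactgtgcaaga
Ighv1-36: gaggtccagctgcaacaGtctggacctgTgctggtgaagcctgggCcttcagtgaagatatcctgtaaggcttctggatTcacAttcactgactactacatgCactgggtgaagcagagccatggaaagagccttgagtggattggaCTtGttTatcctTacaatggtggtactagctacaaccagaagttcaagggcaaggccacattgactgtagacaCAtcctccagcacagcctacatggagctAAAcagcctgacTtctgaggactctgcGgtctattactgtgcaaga
Ighv1-77: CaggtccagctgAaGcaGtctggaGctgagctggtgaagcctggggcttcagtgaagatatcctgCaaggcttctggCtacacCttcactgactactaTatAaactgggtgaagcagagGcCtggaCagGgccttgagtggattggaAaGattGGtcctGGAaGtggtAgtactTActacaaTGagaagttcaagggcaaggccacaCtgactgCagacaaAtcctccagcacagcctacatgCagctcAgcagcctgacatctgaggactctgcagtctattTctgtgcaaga
Ighv1-84: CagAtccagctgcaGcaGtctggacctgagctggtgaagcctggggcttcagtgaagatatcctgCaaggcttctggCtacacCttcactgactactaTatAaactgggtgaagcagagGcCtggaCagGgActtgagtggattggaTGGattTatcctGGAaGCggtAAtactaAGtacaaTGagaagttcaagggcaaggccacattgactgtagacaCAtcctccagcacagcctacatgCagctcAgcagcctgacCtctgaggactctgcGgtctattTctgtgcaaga
Ighv9-3: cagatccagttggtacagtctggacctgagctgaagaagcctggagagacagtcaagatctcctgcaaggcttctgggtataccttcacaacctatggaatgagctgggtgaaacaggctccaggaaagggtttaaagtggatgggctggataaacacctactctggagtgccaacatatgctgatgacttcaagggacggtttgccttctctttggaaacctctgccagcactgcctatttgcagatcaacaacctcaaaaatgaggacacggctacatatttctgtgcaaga

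Ighv1-36 is unlike Ighv1-26 at 18 of the 294 bases, Ighv1-77 at 33 and Ighv1-84 at 36. Over this window, 26 of the 108 segments are at least 97% identical to another annotated segment, and so are 17 of the 75 with a mean of at least 1 FPKM (fragments per kilobase of transcript, scaled to library size). Reads of such near copies could be split between them by the counting, and their values are uncertain. None of Ighv1-36, Ighv1-77, Ighv1-84 and Ighv9-3 is among these 26. The nearest annotated segment to Ighv1-36 is Ighv1-19 at 94.9% identity, the nearest to Ighv1-84 is Ighv1-75 at 95.9%, and the nearest to Ighv9-3 is Ighv9-2 at 94.9%.

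Helper T cell transcripts were high in every library. The 11 genes of that list, which include Cd4, Cd3e and Trac, summed to 4821, 5172 and 5642 FPKM in the AngII libraries and to 5946, 5919 and 5014 FPKM in the Control libraries. B cell transcripts were present at lower levels. All 15 genes of the B cell list had a mean of at least 1 FPKM, and they summed to 80.0, 91.2 and 185.8 FPKM in AngII and 80.4, 105.9 and 195.1 FPKM in Control. Of 12 plasma cell genes, 10 had a mean of at least 1 FPKM. Of 6 genes of early B cell development, Vpreb2, Rag1, Rag2 and Igll1 stayed below 0.04 FPKM in all libraries. The other 2 were present, Vpreb1 at 0.340 to 0.899 FPKM in AngII and 0.376 to 0.697 FPKM in Control, and Dntt at 2.99 to 3.85 FPKM in AngII and 2.93 to 4.09 FPKM in Control. In these bulk libraries, more B-lineage cells and more immunoglobulin RNA per cell cannot be told apart.

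Summed over all 108 segments, Ighv transcripts came to 610.5, 1617 and 970.1 FPKM in the AngII libraries and to 987.2, 840.0 and 1444 FPKM in the Control libraries. AngII library 2 and Control library 3 were the highest, AngII library 1 was the lowest, and the groups overlapped. The means were 1066 ± 510 FPKM in AngII and 1090 ± 315 FPKM in Control (SD, n = 3 each), a difference well inside the spread between mice. The sign of the difference (−24.7 FPKM) rested on single libraries, as it was 202.9 FPKM without AngII library 1, 152.1 FPKM without Control library 3 and 23.1 FPKM without AngII library 3. Ighv made up between 0.0995% and 0.252% of all FPKM in AngII libraries and between 0.121% and 0.220% in Control libraries. No p-value is given for a sum over the members.

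Both libraries that were highest in Ighv were also highest in Jchain, but only 1 of them was high in Cd79a. Jchain, the joining chain of secreted IgM and IgA, was at 69.1, 172.6 and 77.9 FPKM in AngII and 88.2, 89.7 and 174.5 FPKM in Control, with the same 2 libraries highest as for Ighv. The rest of the plasma cell list was divided. Within the AngII group, Sdc1, Derl3, Ell2, Eaf2 and Tnfrsf17 were also highest in library 2. Xbp1, Prdm1, Irf4, Mzb1, Slamf7 and Tnfrsf13b were instead highest in library 3. The B cell receptor component Cd79a was at 8.50, 10.1 and 38.0 FPKM in AngII and 10.5, 15.9 and 36.5 FPKM in Control, so it was high in library 3 of each group and not in AngII library 2. Ighm, the constant region of IgM, was at 549.8, 908.2 and 703.6 FPKM in AngII and 620.3, 689.4 and 1042 FPKM in Control. Ighm thus had the same 2 libraries on top as Ighv.

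Switched heavy chains varied more widely than Ighm. Igha, the IgA constant region, was at 61.3, 183.5 and 79.9 FPKM in AngII and 99.5, 58.3 and 128.9 FPKM in Control. The 4 Ighg genes, which encode IgG constant regions, summed to 68.6, 225.6 and 75.9 FPKM in AngII and 195.7, 86.9 and 385.2 FPKM in Control. AngII library 2 and Control library 3 were again the highest of their groups, and Control library 1 was second in the Control group. The kappa variable segments summed to 841.3, 2336 and 1328 FPKM in AngII and 1386, 1348 and 2800 FPKM in Control. None of the genes on these lists passed the limma test, and the part of B-lineage cell content in the Ighv values was not tested.

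**Figure D1:**
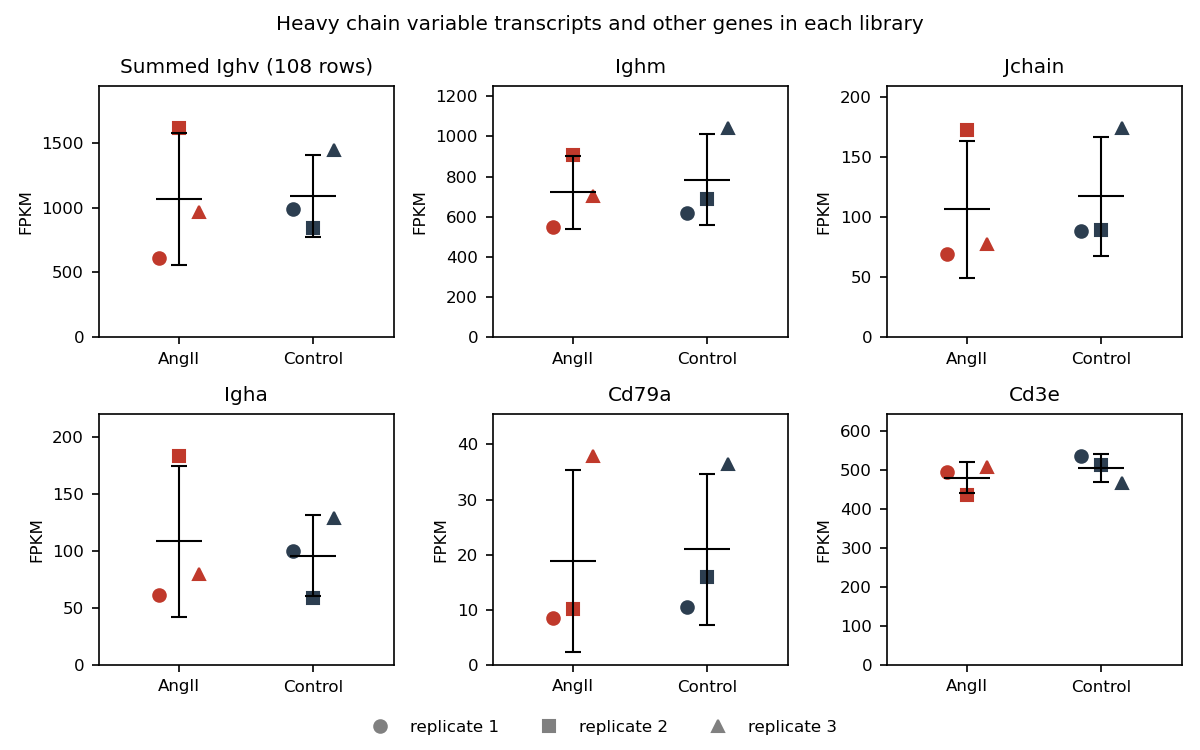
Level in FPKM (y axis) of summed Ighv, Ighm, Jchain, Igha, Cd79a and Cd3e in AngII (left) and Control (right); points are libraries, the long bar is the mean and whiskers are the SD of 3 libraries. AngII library 2 and Control library 3 are highest for summed Ighv (1617 and 1444 FPKM), Ighm, Jchain and Igha, while Cd79a is highest in library 3 of each group.

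Genes were also ranked by the likeness of their FPKM to summed Ighv, as Pearson's r over the 6 libraries and 11534 genes, as a description with no test. Among the closest were Zfp414 (r = 0.98), Hpcal1 (r = 0.98), Mcrip2 (r = 0.97) and Cybb (r = 0.97). Immunoglobulin heavy and light chain genes and T cell receptor V, D and J segments were left out before the ranking. With 6 libraries many genes reach such values. The plasma cell surface proteoglycan gene Sdc1 ranked 28 (r = 0.94) and Jchain ranked 51 (r = 0.93). Other genes of the plasma cell list ranked lower. Xbp1 ranked 1215 (r = 0.68), Derl3 1253 (r = 0.67), Mzb1 1331 (r = 0.66) and Prdm1 3284 (r = 0.39). Of the B cell list, Cd22 ranked 3412 (r = 0.37) and Cd79a ranked 3778 (r = 0.31). The plasma cell list was thus divided here also.

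Usage was broad in every library, with the leading segment below 9% of Ighv FPKM in each. At least 1 FPKM was reached by 71, 74 and 74 segments in AngII and by 71, 72 and 78 in Control. Evenness was measured as the inverse Simpson index, which is the number of equally used segments that would give the same concentration. It was 36.0, 34.1 and 39.8 in AngII and 30.6, 38.1 and 32.3 in Control, with means of 36.6 ± 2.92 in AngII and 33.7 ± 3.91 in Control (SD, n = 3 each). The ranges overlapped. The leading segment held 6.98%, 7.12% and 6.42% of Ighv FPKM in AngII and 7.97%, 5.87% and 8.97% in Control, and the 5 leading segments together held 24.3% to 26.6% in AngII and 24.9% to 29.0% in Control.

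The leading segment was not the same in all libraries. Ighv1-26 led in AngII libraries 1 and 3 and in Control library 3. Ighv8-12 led in AngII library 2, Ighv1-84 in Control library 1 and Ighv1-55 in Control library 2. Ighv1-26, an Ighv1 segment, had 42.6, 72.5 and 62.3 FPKM in AngII and 41.4, 49.3 and 129.5 FPKM in Control. It was among the 5 highest segments of every library, and its groups overlapped. Its nearest neighbour in sequence, Ighv1-18, is 97.3% identical over the window.

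The 12 segments of highest mean ran down to Ighv9-3 at 28.3 FPKM, with Ighv1-26 at 66.3 FPKM on top. Ighv1-26, Ighv1-53 and Ighv3-6 were among the 12 highest in all 6 libraries, and Ighv1-55 and Ighv6-3 in 5 of them. Ighv1-53 had 29.5, 55.3 and 45.1 FPKM in AngII and 28.4, 34.8 and 64.5 FPKM in Control. Ighv6-3 had 28.7, 51.1 and 40.1 FPKM in AngII and 24.9, 37.1 and 48.7 FPKM in Control. Both followed the order of the summed Ighv in the AngII group, and the groups overlapped for each.

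The other segments of the leading 12 ranked among the 12 highest in 2 to 4 libraries each. Ighv1-80 was second in Control library 1 with 78.2 FPKM, where its other values were 14.5, 52.7 and 17.5 FPKM in AngII and 16.1 and 30.1 FPKM in Control libraries 2 and 3. Ighv1-9 had 14.4, 72.4 and 20.8 FPKM in AngII and 10.8, 16.7 and 60.7 FPKM in Control. Ighv5-17 ran differently, at 26.2, 17.6 and 37.6 FPKM in AngII and 9.23, 38.9 and 48.4 FPKM in Control, with its lowest value of the AngII group in the library richest in Ighv. Ighv1-82 was at 11.7 to 32.8 FPKM in AngII and 13.3 to 63.5 FPKM in Control.

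**Figure D2:**
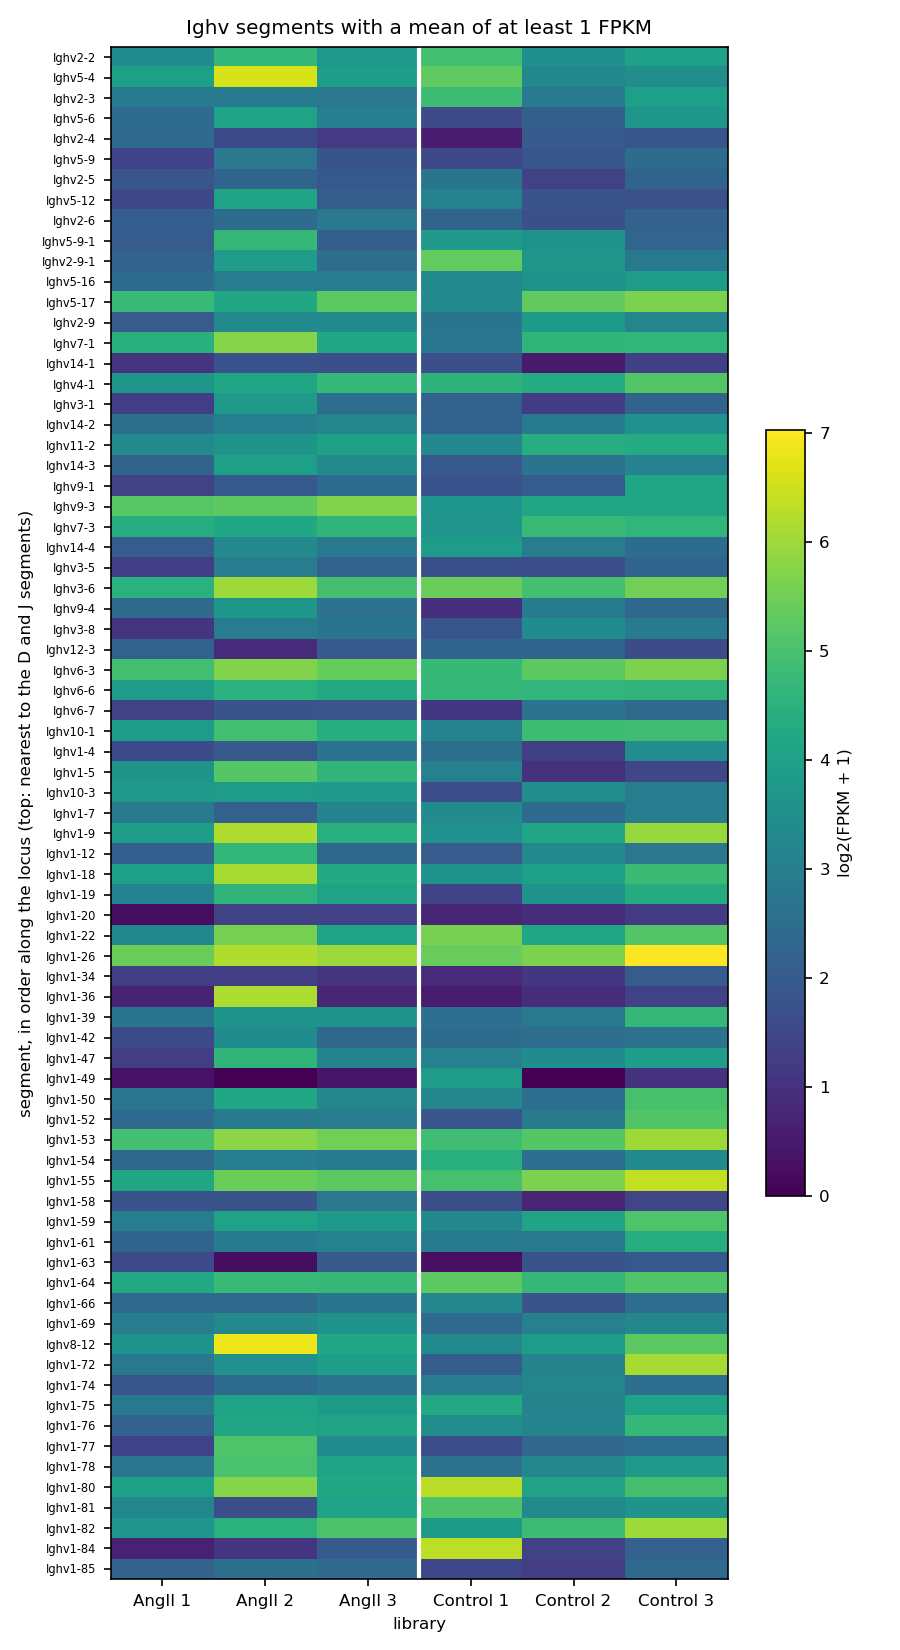
Colour gives log2(FPKM + 1) of the 75 segments with a mean of at least 1 FPKM (rows, in order along the locus) in the AngII libraries (left of the white line) and the Control libraries (right). Broadly used rows such as Ighv1-26 are bright in every column, whereas Ighv1-36 is bright in AngII library 2 alone and Ighv1-84 in Control library 1 alone.

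All members lie on chromosome 12 (GRCm38), on the minus strand except Ighv5-8 and Ighv1-13, the 2 leader-variable genes. The 57 segments of the Ighv1 and Ighv8 families span chr12:114487136-116000461, and the 51 of the other families span chr12:113574245-114565012, nearer to the D and J segments. The Ighv1 and Ighv8 families held 49.7%, 60.2% and 55.7% of Ighv FPKM in AngII and 59.7%, 50.5% and 66.0% in Control. The division between the distal and proximal parts of the locus therefore varied by mouse in both groups, with overlap.

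The Ighv1 family alone, with 50 segments, held 51.6% ± 3.23 of Ighv FPKM in AngII and 57.0% ± 7.44 in Control (SD, n = 3 each). Ighv5 held 9.54% ± 1.79 in AngII and 8.22% ± 1.36 in Control. The groups overlapped for both families. Ighv2 was at 5.40%, 3.997% and 4.53% in AngII and 11.3%, 6.05% and 3.81% in Control, where library 1 stood apart. Ighv8 was at 1.78%, 7.14% and 1.86% in AngII and 0.928%, 1.69% and 2.59% in Control, its high value in AngII library 2 being that of Ighv8-12.

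Ighv9 was the one family whose shares did not overlap between the groups. It held 6.88%, 3.29% and 6.35% in AngII and 1.72%, 3.11% and 2.68% in Control. The gap between AngII library 2 and Control library 2 was small. Ighv9-3 alone held 5.82%, 2.34% and 5.27% in AngII and 1.22%, 1.96% and 1.15% in Control. The family was singled out after its values were seen, and no test is given for it.

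**Figure D3:**
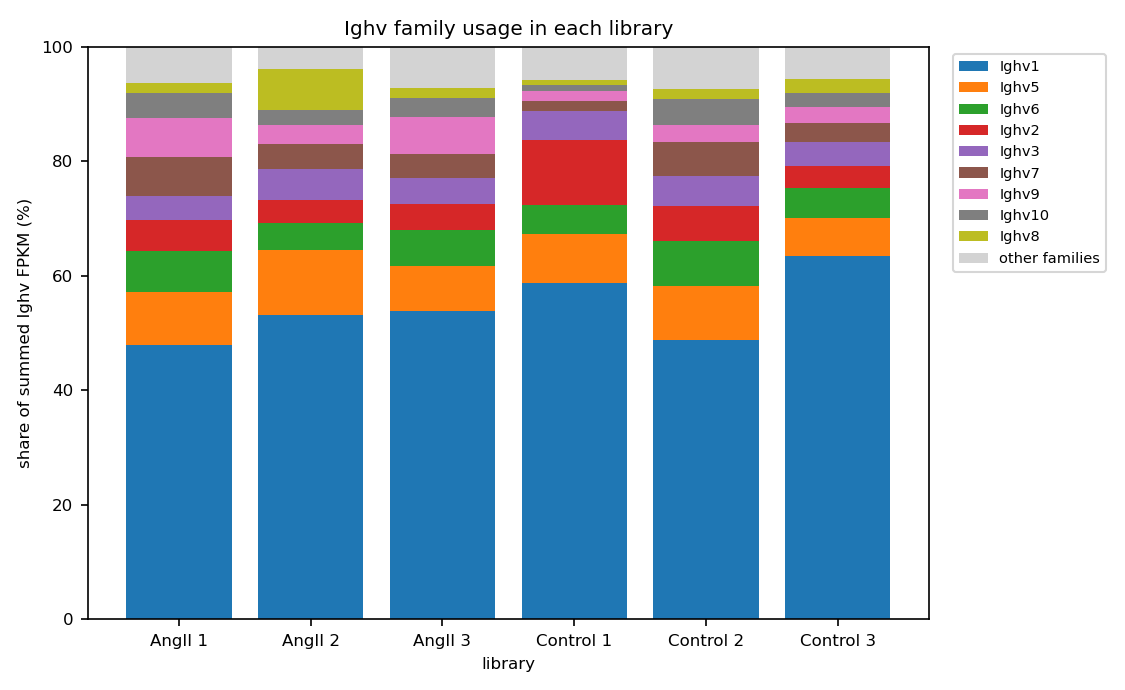
Share of summed Ighv FPKM (y axis, %) held by each Ighv family in the 3 AngII libraries (left) and the 3 Control libraries (right); colours are families. Ighv1 takes 47.9% to 53.9% in AngII and 48.8% to 63.4% in Control, and the Ighv9 band is between 3.29% and 6.88% in AngII and between 1.72% and 3.11% in Control.

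Segments known from classical antibody responses or B cell subsets were read one by one, a choice made with these values in view. Ighv1-72, the V186.2 segment of anti-hapten responses in C57BL/6 mice, had 6.00, 10.9 and 14.2 FPKM in AngII and 3.19, 7.83 and 68.1 FPKM in Control. Control library 3 stood apart. Ighv1-72 is 99.3% identical to Ighv1-62-3, which is listed at 0 in all libraries, and its value is uncertain for that reason. Ighv7-1, used by antibodies to phosphorylcholine, had 21.1, 53.2 and 17.2 FPKM in AngII and 5.71, 23.4 and 23.8 FPKM in Control. Ighv11-2, used by B-1 cells that bind phosphatidylcholine, had 8.88, 11.5 and 15.2 FPKM in AngII and 8.58, 19.7 and 18.9 FPKM in Control. The groups overlapped for each of these segments.

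Libraries were compared by the share each segment held of that library's Ighv FPKM, with Pearson's r over the 108 segments as a description. AngII libraries 1 and 3 were the most alike (r = 0.96), although AngII library 1 had the lowest summed Ighv of the 6. Control library 1 was least like the others, with r between 0.46 and 0.51 and a mean of 0.48. AngII library 2 followed with a mean of 0.59, and the other 4 libraries had means between 0.71 and 0.77. Mean r was 0.68 within groups and 0.67 between groups. On average 29.1% of usage would have to move to other segments to turn a library into another of its own group, and 29.2% to turn it into one of the other group.

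Single libraries set the value of many segments. For each of the 75 segments with a mean of at least 1 FPKM, the share of its 6-library sum that lay in its highest library was computed. The median was 32.3%, against 18.8% over the 11842 genes of any kind that reached that mean. The median coefficient of variation over the 6 libraries was 59.0% for these Ighv segments and 10.0% over all those genes. At least 50% of the sum lay in 1 library for 9 of the 75 segments (12%), where the background was 2.58% of the 11842 genes.

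The same count was 12 of 79 for the kappa variable segments (15.2%). It was 0 of 68 for the variable segments of the T cell receptor alpha chain and 0 of 20 for those of the beta chain. Their medians for the highest library were 33.1% for kappa, 20.6% for alpha and 19.2% for beta. The 9 Ighv segments had their highest value in AngII library 2 (4 segments), Control library 1 (2 segments) or Control library 3 (3 segments). None of them peaked in AngII library 1, AngII library 3 or Control library 2.

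Ighv1-36 had 0.582, 70.0 and 0.690 FPKM in AngII and 0.439, 0.844 and 1.55 FPKM in Control. AngII library 2 held 94.5% of the sum and was 45.1 times the next highest library, while the remaining AngII libraries lay within the Control range. Ighv1-84 had 0.560, 1.10 and 2.96 FPKM in AngII and 78.7, 1.63 and 3.42 FPKM in Control. Control library 1 held 89.1% and was 23.0 times the next, with the rest of the Control group overlapping AngII. In that library Ighv1-84 was the leading segment of all Ighv, at 7.97% of usage.

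Ighv1-49 had 0.276, 0 and 0.329 FPKM in AngII and 13.7, 0 and 1.06 FPKM in Control. It is listed at 0 in AngII library 2 and Control library 2, and Control library 1 held 89.2%. Ighv1-49 and Ighv1-36 reached a mean of 1 FPKM, and so entered the count, only through their highest library. Ighv1-77 had 1.66, 33.4 and 9.55 FPKM in AngII and 2.24, 3.98 and 4.81 FPKM in Control, with 59.99% in AngII library 2. AngII library 1 was the lowest of all 6 for this segment, so the groups overlapped. Ighv8-12 had 10.9, 115.1 and 17.6 FPKM in AngII and 9.17, 13.9 and 37.4 FPKM in Control. It was present in all 6 libraries and led the usage of AngII library 2, which held 56.4% of the sum.

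Control library 3 held 61.8% of Ighv1-72, 55.7% of Ighv1-52 and 53.2% of Ighv9-1. Ighv1-52 had 4.54, 6.34 and 6.68 FPKM in AngII and 2.65, 6.41 and 33.5 FPKM in Control. It is 98.6% identical to Ighv1-61, and the division of reads between the pair is uncertain. Ighv9-1 had 1.55, 2.81 and 4.54 FPKM in AngII and 2.39, 3.15 and 16.4 FPKM in Control. In both segments the other Control libraries lay among or next to the AngII values.

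Ighv5-4 was just inside the 50% limit, with 52.8% in AngII library 2. Its values were 14.8, 96.99 and 14.3 FPKM in AngII and 38.8, 8.75 and 10.1 FPKM in Control. Just outside were Ighv2-9-1 with 49.2% in Control library 1, Ighv1-12 with 48.7% in AngII library 2 and Ighv5-12 with 48.3% in the same library. With a limit of 40% the count was 19, and with 60% it was 4.

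The 9 segments together held 6.70%, 20.8% and 7.30% of Ighv FPKM in AngII and 15.3%, 5.53% and 12.2% in Control. Left out of the sum, they leave 569.7, 1280 and 899.3 FPKM in AngII and 835.9, 793.6 and 1268 FPKM in Control. AngII library 2 and Control library 3 were then still the highest. Most of the excess of these libraries therefore lay in the remaining 99 segments. Of the 75 segments, 1, 28 and 6 were highest in AngII libraries 1, 2 and 3, and 15, 7 and 18 were highest in Control libraries 1, 2 and 3. AngII library 1 had the lowest value of 30 segments and Control library 1 of 28, although the summed Ighv of Control library 1 exceeded that of 3 other libraries.

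**Figure D4:**
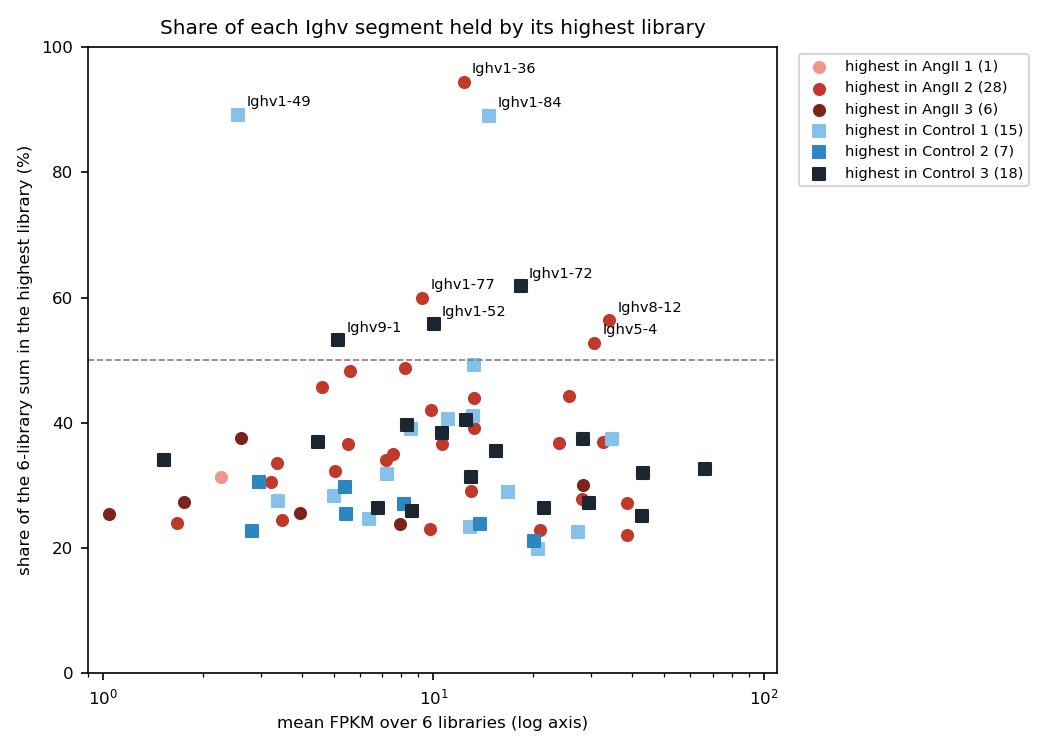
Each point is 1 of the 75 Ighv segments with a mean of at least 1 FPKM; the x axis is its mean FPKM on a log scale and the y axis the share of its 6-library sum in its highest library (%). Circles are segments highest in an AngII library, squares those highest in a Control library, and the dashed line marks 50%, above which the 9 named segments lie across the range of levels.

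Between the groups, no Ighv segment passed the test. Values were compared as log2(FPKM + 1) with limma over 11842 genes, and 0 of the 75 tested segments had an adjusted p below the threshold, where 4 genes (0.0338%) of the whole table did. At an unadjusted p below 0.05 there were 5 segments, against 1.76% of all genes tested. The fitted difference was positive for 33 segments and negative for 42, with a median of −0.11 on the log2 scale, where the median of all genes tested was −0.004. The sign of the Ighv median was not stable, since it was 0.13 without AngII library 1 and 0.20 without Control library 3. The median half-width of the 95% interval was 1.18 on the log2 scale for Ighv and 0.26 for all genes tested. For a segment at this median, differences between the groups of up to about this size were therefore not detectable. The interval is not adjusted for the 11842 genes tested, so larger differences could also be missed.

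The groups did not overlap for 4 segments with AngII above Control, where 2.36% of all genes tested did so, and for 2 segments with AngII below Control, where 3.48% did. The 4 were Ighv9-3, Ighv1-5, Ighv10-3 and Ighv1-58, and the 2 were Ighv5-16 and Ighv6-6. The first 3 of the 4 and both of the 2 are the segments with an unadjusted p below 0.05. These 6 segments come from 5 families, and Ighv1-5 and Ighv10-3 lie close together at chr12:114513330-114513807 and chr12:114523441-114523905.

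Ighv9-3 (chr12:114140692-114141122) had 35.5, 37.9 and 51.1 FPKM in AngII and 12.04, 16.5 and 16.6 FPKM in Control. Each AngII library was more than double any Control library, and the level did not follow the summed Ighv, being similar in AngII libraries 1 and 2. The log2 difference was 1.40 (SE 0.18, 95% interval 0.96 to 1.84), with an adjusted p of 0.382 in limma. The segment ranked 2, 14 and 2 in usage in AngII libraries 1, 2 and 3, and 23, 16 and 28 in Control libraries 1, 2 and 3, so AngII library 2 was next to Control library 2. Over the 15 alternatives its log2 difference stayed between 1.21 and 1.503 and its adjusted p between 0.255 and 0.838.

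Ighv1-5 had 11.4, 35.02 and 23.0 FPKM in AngII and 7.32, 1.008 and 1.83 FPKM in Control. The lowest AngII library was close to the highest Control library. The log2 difference was 2.61 (SE 0.62) with an adjusted p of 0.9999 in limma. Ighv10-3 had 13.1, 13.5 and 12.8 FPKM in AngII and 2.16, 10.2 and 6.95 FPKM in Control. The AngII libraries were nearly equal, Control library 1 was far below the rest, and the log2 difference was 1.11 (SE 0.45). Ighv1-58, at 2.57, 2.55 and 5.87 FPKM in AngII and 2.25, 0.657 and 1.76 FPKM in Control, had a log2 difference of 0.85 (SE 0.36). The lowest Ighv values above 0 were 0.177 to 0.329 FPKM in AngII libraries and 0.188 to 0.222 FPKM in Control libraries. The Control value of 0.657 FPKM is near this floor.

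Ighv5-16 had 4.51, 6.68 and 6.69 FPKM in AngII and 9.19, 11.2 and 13.4 FPKM in Control. Its log2 difference was −0.82 (SE 0.18), and the spread within each group was small for an Ighv segment. Ighv6-6 had 13.5, 21.4 and 18.2 FPKM in AngII and 24.5, 23.8 and 22.6 FPKM in Control. The highest AngII value was close to the lowest Control value, and the log2 difference was −0.42 (SE 0.16). Ighv1-85, Ighv1-64, Ighv2-3 and Ighv1-74 complete the 10 segments of smallest p, with log2 differences of 0.70, −0.45, −1.04 and −0.57, and their groups overlapped. The adjusted p in limma was 0.9999 for each of the 9 segments after Ighv9-3.

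**Figure D5:**
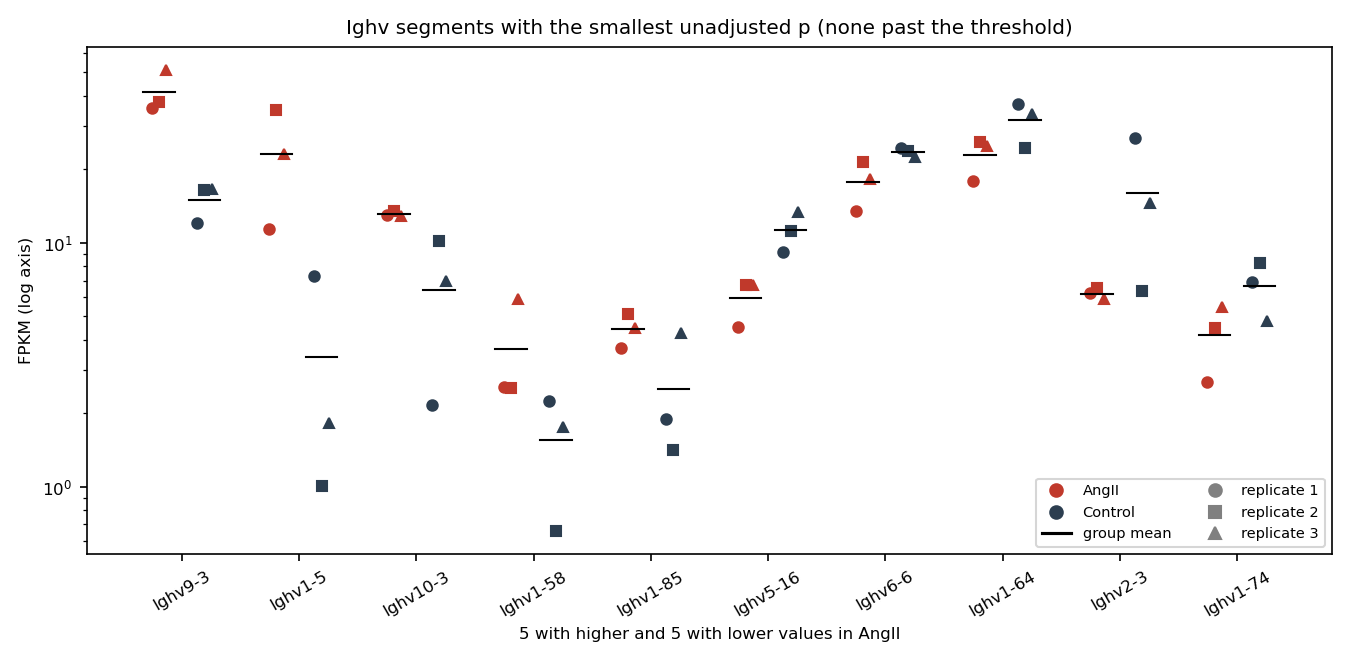
FPKM (y axis, log scale) of the 10 Ighv segments with the smallest unadjusted p, 5 with AngII above Control and 5 with AngII below it; red AngII points stand left of dark Control points, bars are group means, and symbols give the replicate number. None passed the adjusted threshold, and the Ighv9-3 points lie at 35.5 to 51.1 FPKM in AngII against 12.04 to 16.6 FPKM in Control.

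The segments with the largest single-library values had wide intervals in the same fit. The log2 difference was 1.60 (SE 1.49) for Ighv1-36, −2.05 (SE 1.29) for Ighv1-84, 1.12 (SE 0.89) for Ighv1-77 and −1.39 (SE 0.96) for Ighv1-49. Without Control library 1 the difference of Ighv1-84 was −0.54. Without AngII library 2 the difference of Ighv1-77 was 0.22, and Ighv1-36 no longer reached a mean of 1 FPKM. Nor did Ighv1-49 reach that mean without Control library 1.

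The authors' deposited table calls 3 Ighv segments significant in the authors' own comparison of 2 conditions. In the authors' deposited table, Ighv1-36 has p = 5e-05 and q = 0.0216, Ighv1-84 has p = 5e-05 and q = 0.0216, and Ighv1-77 has p = 0.0001 and q = 0.0398. In the library files these are the 3 segments described above with 94.5%, 89.1% and 59.99% of their FPKM in 1 library. The authors' deposited table has 104 rows that name Ighv, of which 77 were tested, so 3 of 77 were called where 37 of 14720 rows (0.251%) were called in the whole table. It names its conditions only by number, so no direction was taken from it. Ighv9-3 appears there only in a row that names several segments.

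The remaining 33 members were not tested. Of these, 15 were listed at 0 in every library, among them both leader-variable genes and both pseudogenes. Ighv1-62-2 and Ighv1-71 were also listed at 0, and they are 100% identical to each other over the 294-base window. The other 18 had a mean below 1 FPKM but were above 0 somewhere. Ighv5-2, also known as 81X and favoured in early pre-B cells, had 0, 0.404 and 0.471 FPKM in AngII and 2.07, 0 and 0.781 FPKM in Control. Ighv1-43 was listed at 2.28 FPKM in AngII library 2, at 0.32 FPKM in Control library 2 and at 0 elsewhere. In all, 79 of the 108 segments were above 0 in all 6 libraries.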

How the data were processed

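RNA was sequenced from splenic CD4+ T cells of 3 AngII and 3 Control mice. Per the submitters' processing notes, the tools were Trimmomatic 0.32, TopHat2 2.1.1 and Cuffdiff, with build GRCm38.p3. The annotation and the Cuffdiff version are not given in these sources. The authors deposited 1 file of FPKM values per library, normalised by them to transcript length and library size. Per the file headers, the authors' deposited table holds a p-value, with its q-value, per gene of their own comparison.

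FPKM is not a count, and the number of fragments per library is not given. From the steps between low values, 1 fragment was worth 0.895 to 1 times its FPKM worth in Control library 1, so depth was similar. Summed FPKM was 613674 to 717286 per library, and at least 98.3% of tested genes differed between any pair of libraries, so none was a duplicate. Gene symbols and positions came from GENCODE M21 by identifier for 37691 of 39171 identifiers, and sequences from its transcripts. An exact 0 can be a failed estimate.

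Genes whose mean over the 6 libraries reached 1 FPKM were tested as log2(FPKM + 1) with limma 3.58.1 in R 4.3.3 (eBayes with trend, two-sided, Benjamini-Hochberg adjustment over all 11842 genes, threshold 0.05), tested on simulated data first. On the log2(FPKM + 1) scale, the change of low genes is understated. Other values were computed in Python 3.11.15. The pairs of AngII and Control libraries with the same number did not deviate together (r = −0.08, −0.02 and −0.04). Such values cannot exclude a weak pairing. The labels name no pairing, so the samples were treated as unpaired.

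The members and lists were chosen with earlier results of these data known. Any Ighv segment may be named. Those given in full are the 12 of highest mean, the leader of each library, the 5 of smallest p in each direction, and those with the largest single-library shares, and heavy and light chain genes, marker lists and the 5 genes most like summed Ighv were added. Of these added genes, 3 are not reported here. The segments of known specificity, Ighv5-2 and Ighv1-43 were picked with their values in view. Alternatives were other pseudocounts, filters, scalings, limits and leaving out each library.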

Additional observations from a re-analysis of the deposited data

How the results depend on the processing

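The count of Ighv segments past the threshold was 0 under all 15 alternatives. The differences in summed Ighv, evenness and leading share moved by less than 1 SD between replicates (424 FPKM, 3.45 and 1.15 percentage points) under each of their 10 alternatives. As each library was left out, the difference in summed Ighv ran from −300.1 to 202.9 FPKM and turned sign without AngII library 1, AngII library 3 or Control library 3, evenness ran from 1.38 to 5.16, and leading share ran from −1.63 to −0.0812 percentage points. For 14 segments the 15 alternatives gave 205 values in all. Each of these values kept its direction and none passed the threshold. A segment has no value where it fell below the filter on low values. Such cases include Ighv1-36 without AngII library 2 and Ighv1-49 without Control library 1, the libraries that set their levels. The direction of these segments without those libraries was therefore not assessed. The count of all genes past the threshold was 4, became 7 with no filter and 1 without genes listed at 0 in a whole group, and ran from 4 to 9 as each library was left out (9 without AngII library 3, 8 without Control library 1 and 7 without Control library 3). The count of segments with at least 50% in 1 library was 9, became 19 at 40% and 4 at 60%, and ran from 9 to 16 as each library was left out, the 16 being without AngII library 3. With the replicate number as a block, 3 genes and 0 Ighv segments passed, 11 segments had an unadjusted p below 0.05 and the smallest adjusted p in limma was 0.330. The pairing of the numbers is not supported by the deviations of the libraries. The cause of these changes was not tested, except that leaving out a library removes values by construction. With 3 libraries a group, the median half-width of the Ighv intervals was 1.18 on the log2 scale, and near-identical segments cannot be told apart.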

Other observations

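The short joining segments of the heavy chain gave values that alternate between 0 and very high FPKM. Ighj1 was listed at 759.6, 1405 and 2337 FPKM in AngII and at 0, 0 and 1692 FPKM in Control. Ighj3 was listed at 0, 1102 and 5282 FPKM in AngII and at 4009, 0 and 0 FPKM in Control. Ighj4 was listed at 818.0, 0 and 2576 FPKM in AngII and at 0, 1312 and 1858 FPKM in Control. Ighj2 was listed at 0 in all 6 libraries. These values do not follow Ighm or summed Ighv. Ighj1, Ighj3 and Ighj4 each had an adjusted p of 0.9999 in limma, and no conclusion was drawn from them.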
